A study of Homo sapiens with 2 samples.

Results

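The extracellular matrix around a keratinocyte is remodelled by 2 linked protease systems, whose genes were read here in HaCaT, an immortal line of human skin keratinocytes. Described are 10 genes of the 15159 in the deposited gene table: PLAU and PLAUR of plasminogen activation, the matrix metalloproteinases MMP14, MMP1, MMP9 and MMP10, the inhibitors TIMP1 and TIMP2, and the proteoglycan-cleaving proteases ADAMTS1 and ADAMTS9. They were chosen by gene symbol, with their read counts in these same libraries already known, so every value below is a description and none is a test. One dish received MigR1, a retroviral vector, carrying FLI1, an ETS-family transcription factor (the FLI1 library), and 1 dish received MigR1 alone (the vector library). Both dishes were transfected with 4 µg of DNA by a lipid reagent, and RNA was taken 2 days later, after a check for GFP. The share of cells that took up DNA is not given in the labels.

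In wounded skin, keratinocytes at the migrating edge secrete urokinase, which binds its receptor on the cell surface and turns plasminogen into plasmin. Plasmin degrades fibrin and can activate several pro-metalloproteinases. Metalloproteinases are made as inactive precursors, need zinc at the active site and are blocked by TIMPs, so the level of an mRNA says nothing of enzyme activity. Several promoters of these genes are textbook targets of AP-1 and ETS factors.

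The FLI1 library held 14677273 reads in genes and the vector library 14497105. FLI1 itself had 2452 reads in the FLI1 library and 64 in the vector library, a log2 ratio of 5.26 (95% counting interval 4.91 to 5.65). All ratios are FLI1 over vector, scaled by TMM, and each interval is an exact conditional one that compares these 2 libraries, not the conditions. It leaves out every error but that of counting. Reads that carry no molecular identifier are not independent molecules, so it may be too narrow even for counting error. With 1 library per group no difference has a replicate check. All 12 keratinocyte markers were detected, with 284881 and 283182 summed reads in the FLI1 and vector libraries. Values were available for 4 of 9 fibroblast markers (110 and 101 summed reads, 98 and 100 of them COL1A1), 5 of 9 leukocyte markers (419 and 271, mostly CD68 with 379 and 246) and 4 of 7 endothelial markers (92 and 55, mostly VWF with 90 and 52). Of 6 melanocyte markers 5 had values (176 and 66, of which PMEL had 97 and 3). The others were MITF with 72 and 56 reads, MLANA with 5 and 5, TYRP1 with 2 and 0, and DCT with 0 and 2. COL1A2, PDGFRB, CDH5 and KDR had 1 read or none in each library, CD14 had 2 and 0, CD163 2 and 1, and FAP 10 and 0 in the FLI1 and vector libraries. The part of other cell types in the results below was not tested.

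The promoter windows of PLAU, PLAUR, MMP14, MMP10 and TIMP1 are shown first, because FLI1 is an ETS factor. These 5 were the only ones of the 10 genes with an available window. Their ratios run from an even level (TIMP1) to 1.70-fold (PLAUR). No window was available for ADAMTS9 (7.40-fold), MMP9 (3.49-fold), ADAMTS1 (1.61-fold), MMP1 (1.56-fold) and TIMP2 (1.29-fold). The motif counts below therefore leave out ADAMTS9 and MMP9, whose ratios were the largest of the 10. RefSeq (GRCh38.p14) gave 6 windows for 5 of the 10 genes, each from 250 bases before to 50 after a start site and written 5′ to 3′ on the gene's strand. Capitals mark the AP-1 motif TGANTCA and the ETS core GGAA on either strand (TTCC on the other), including the longer ETS motif CCGGAA, which contains the core. The PLAU windows lie at chr10:73910882-73911181 (near the first base of the main transcript) and chr10:73910360-73910659 (upstream start), plus strand. The others lie at chr19:43670120-43670419 (PLAUR, minus strand), chr14:22836335-22836634 (MMP14, plus), chr11:102780579-102780878 (MMP10, minus) and chrX:47582186-47582485 (TIMP1, plus).
PLAU, near the main start: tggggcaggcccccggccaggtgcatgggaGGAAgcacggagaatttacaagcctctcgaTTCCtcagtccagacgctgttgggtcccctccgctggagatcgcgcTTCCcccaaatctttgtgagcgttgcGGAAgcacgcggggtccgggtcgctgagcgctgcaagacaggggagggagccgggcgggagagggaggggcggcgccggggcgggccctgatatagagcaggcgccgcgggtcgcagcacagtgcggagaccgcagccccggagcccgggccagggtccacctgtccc
PLAU, upstream start: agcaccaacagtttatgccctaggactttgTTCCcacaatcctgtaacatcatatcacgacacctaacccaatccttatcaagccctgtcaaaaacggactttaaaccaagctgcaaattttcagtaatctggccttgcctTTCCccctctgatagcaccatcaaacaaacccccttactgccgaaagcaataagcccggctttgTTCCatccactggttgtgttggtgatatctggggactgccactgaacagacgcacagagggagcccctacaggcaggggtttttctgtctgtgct
PLAUR: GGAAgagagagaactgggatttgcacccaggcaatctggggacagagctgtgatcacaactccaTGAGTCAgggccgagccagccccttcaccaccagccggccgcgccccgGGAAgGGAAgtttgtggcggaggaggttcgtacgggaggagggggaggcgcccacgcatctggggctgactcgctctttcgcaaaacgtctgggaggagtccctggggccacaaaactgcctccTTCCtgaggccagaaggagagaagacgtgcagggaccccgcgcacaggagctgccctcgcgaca
MMP14: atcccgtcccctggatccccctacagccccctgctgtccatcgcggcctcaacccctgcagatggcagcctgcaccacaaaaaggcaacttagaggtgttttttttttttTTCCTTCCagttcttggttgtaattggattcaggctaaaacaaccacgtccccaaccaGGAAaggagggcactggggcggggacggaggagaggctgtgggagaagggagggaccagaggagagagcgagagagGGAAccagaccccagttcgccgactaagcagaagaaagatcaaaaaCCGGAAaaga
MMP10: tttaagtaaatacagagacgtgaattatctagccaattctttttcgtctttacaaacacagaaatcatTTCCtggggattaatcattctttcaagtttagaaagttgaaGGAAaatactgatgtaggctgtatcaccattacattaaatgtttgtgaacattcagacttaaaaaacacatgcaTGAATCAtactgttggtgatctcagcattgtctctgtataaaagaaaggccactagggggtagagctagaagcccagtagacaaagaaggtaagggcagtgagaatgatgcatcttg
TIMP1: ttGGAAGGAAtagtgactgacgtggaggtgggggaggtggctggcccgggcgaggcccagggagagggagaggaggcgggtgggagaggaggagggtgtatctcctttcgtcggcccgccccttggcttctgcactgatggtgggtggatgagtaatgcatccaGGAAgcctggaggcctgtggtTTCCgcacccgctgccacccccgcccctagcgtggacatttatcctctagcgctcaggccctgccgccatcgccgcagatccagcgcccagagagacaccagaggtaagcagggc

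AP-1 matches were present in 2 of the 6 windows. PLAUR had TGAGTCA starting 186 bases before the start site, and MMP10 had TGAATCA starting 67 bases before it. Of 35116 RefSeq windows of the same length, 7.71% held TGANTCA. The longer ETS motif CCGGAA was found in 1 of the 6 windows, that of MMP14, starting 40 bases after the start site, and in 17.2% of all windows. The core GGAA was in all 6 windows, with 2 to 5 matches each, and in 95.5% of all windows, where the median was 3. These letters are a description and show no binding.

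PLAU and PLAUR, the pair that starts plasminogen activation, were both higher in the FLI1 library, and PLAU was the most abundant of the 10 genes. PLAU encodes urokinase, the serine protease that activates plasminogen, and its annotation spans 73909177 to 73917497 of chromosome 10, plus strand (GENCODE 29, GRCh38). It had 9795 reads and 573 TPM (a share of all transcripts, corrected for transcript length) in the FLI1 library, against 7044 reads and 418 TPM in the vector library. The log2 ratio was 0.48 (0.44 to 0.53), or 1.40-fold, and PLAU ranked 229 among all genes by TPM in the FLI1 library and 317 in the vector library. PLAUR encodes the urokinase receptor, which is tied to the membrane by a GPI anchor, and spans 43646095 to 43670547 of chromosome 19, minus strand. Its values were 1722 reads and 198 TPM in the FLI1 library, against 1018 reads and 120 TPM in the vector library, a log2 ratio of 0.77 (0.65 to 0.88) or 1.70-fold. The receptor thus differed by more than its ligand: the log2 ratio of PLAUR exceeded that of PLAU by 0.28 (0.16 to 0.40), a difference free of library scaling. On the TPM scale there were 2.90 PLAU transcripts per PLAUR transcript in the FLI1 library and 3.48 in the vector library. PLAU, MMP1, MMP10, MMP9, ADAMTS9 and TIMP2 each overlap another GENCODE 29 gene on the opposite strand, not analysed here, and whether counting used strand is unknown. In bulk RNA like this, a change in the number of cells that make a transcript and a change in transcript per cell cannot be told apart.

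**Figure D1:**
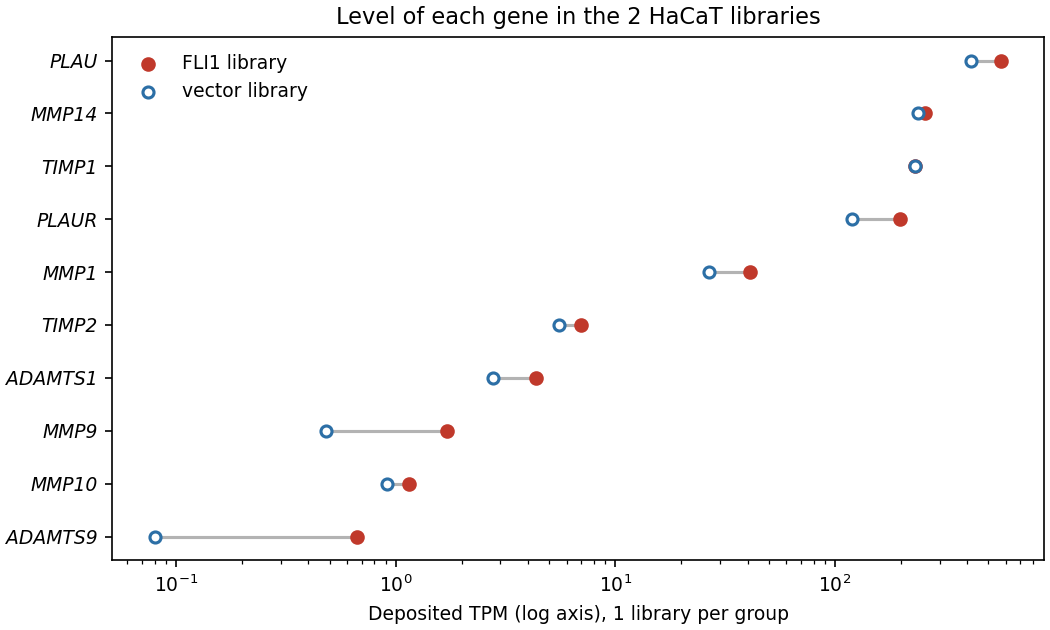
Deposited TPM of the 10 genes on a log axis, with the FLI1 library as filled points and the vector library as open points, 1 library each. PLAU, MMP14, TIMP1 and PLAUR lie above 100 TPM in both libraries, and TIMP1 has nearly the same level in both. ADAMTS9 and MMP9 show the widest gaps and lie at low levels, as does MMP10, whose gap is narrower.

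SERPINB2, an inhibitor of urokinase that is mostly kept inside keratinocytes, was higher as well, with a larger ratio than PLAU. It had 32587 reads and 2421 TPM in the FLI1 library, against 17905 reads and 1349 TPM in the vector library (log2 ratio 0.87, 0.85 to 0.90). Its ratio exceeded that of PLAU by 0.39 (0.34 to 0.44) on the log2 scale, while the interval of its difference from PLAUR (0.11, -0.01 to 0.22) included 0.

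Of the plasminogen activation list, 11 of 12 genes had values and passed the filter of at least 20 reads in 1 library. Among these 11, 7 had a counting interval above 0, against 16.5% of all 11659 genes past the filter, and none had one below it, against 14.7%. How often an interval leaves out 0 depends on read depth. Here and below, all genes were not matched in depth to a list. At least 1.5-fold higher were 4, among them PLAUR, SERPINB2 and SERPINF2, against 3.51% of all genes. Without PLAU and PLAUR, which were chosen from these values, the counts were 5 of 9 by interval and 3 by size. This list, like the others below, was itself chosen with earlier results of these data known. Leaving out the pair therefore does not free the counts of that choice, and they are a description. SERPINF2, which encodes an inhibitor of plasmin, had 47 reads in the FLI1 library and 28 in the vector library (0.74, 0.05 to 1.48). The list median was 0.25 with or without that pair, against -0.0036 over all genes past the filter. PLAT, the gene of the tissue-type activator, had 420 reads in the FLI1 library and 440 in the vector library (-0.06, -0.26 to 0.14). The plasminogen-binding pair ANXA2 (0.25, 0.23 to 0.27) and S100A10 (0.10, 0.05 to 0.15) had intervals above 0, and the endocytic receptor gene LRP1 (-0.04, -0.13 to 0.06) did not.

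The transcript table divides PLAU among 4 transcripts and PLAUR among 11. Nearly all PLAU reads were assigned to NM_002658, with 9176 estimated reads in the FLI1 library and 6662 in the vector library (0.47, 0.42 to 0.52). It held 93.7% (93.2 to 94.2, exact binomial interval) of the gene's reads in the FLI1 library and 94.6% (94.0 to 95.1) in the vector library. NM_001319191 had 320 estimated reads in the FLI1 library against 119 in the vector library, a log2 ratio of 1.43 (1.13 to 1.75), and its share was 3.27% (2.92 to 3.64) against 1.69% (1.40 to 2.02). NM_001145031, which GENCODE 29 pairs with the same transcript model as NM_001319191 (10 exons and 1242 coding bases, against 11 exons and 1293 coding bases for NM_002658), had 251 estimated reads against 224 (0.17, -0.09 to 0.44). The minor PLAU transcripts therefore did not differ alike. Their intervals leave out the error of dividing reads among transcripts.

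For PLAUR, the main transcript NM_002659 had 1205 estimated reads in the FLI1 library and 661 in the vector library (0.87, 0.74 to 1.01). Its share of the gene's reads was 70.0% (67.8 to 72.1) in the FLI1 library and 64.9% (61.9 to 67.9) in the vector library. NM_001005376, whose model extends to the far 3′ end of the gene and has 843 coding bases against 1005, had 201 and 143 estimated reads in the FLI1 and vector libraries (0.50, 0.18 to 0.82). NM_001005377, with 1 exon fewer and 870 coding bases, had 111 and 87.7 (0.34, -0.07 to 0.76). The intervals of the main transcript's share overlap narrowly, and all 3 leading transcripts had ratios above 0. Among the 7 predicted transcripts (those named XM), 4 were listed at 0 reads in the vector library and had 8.90 to 38.9 estimated reads in the FLI1 library. XM_011527029 went the other way, with 3.95 estimated reads in the FLI1 library and 48.3 in the vector library. Together the 7 had 186 and 122 estimated reads, so the opposite values of single predicted transcripts are much wider apart than their sum.

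**Figure D2:**
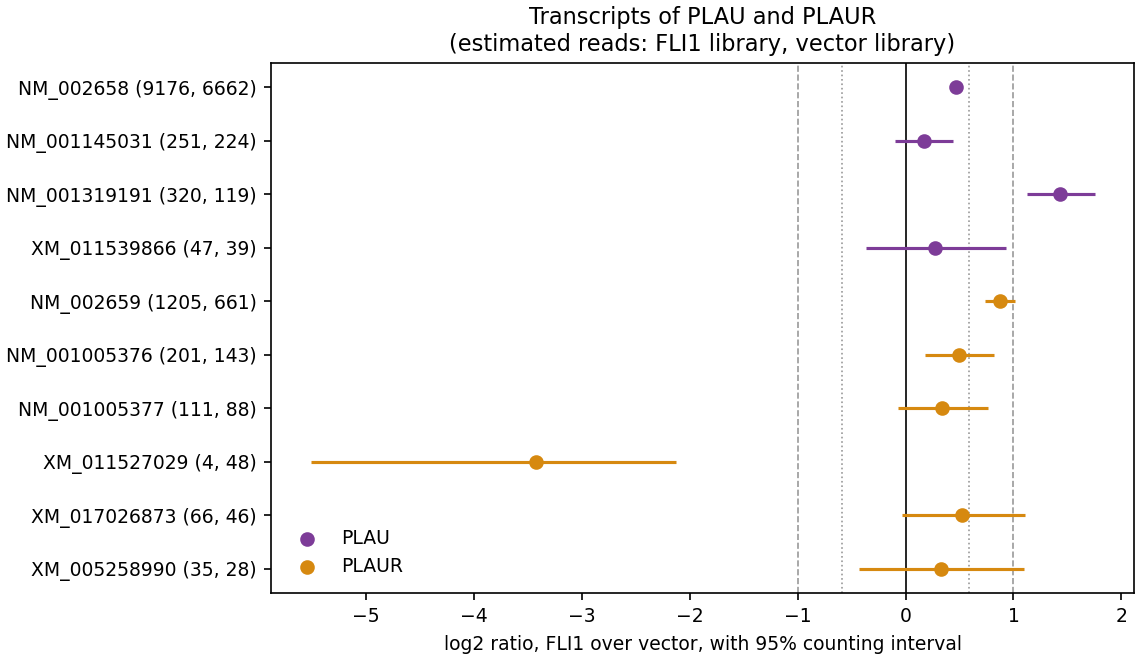
Log2 ratio (FLI1 over vector) of PLAU and PLAUR transcripts with 95% counting intervals, for transcripts with reads in both libraries and at least 20 in 1 of them. Dotted and dashed lines mark 1.5-fold and 2-fold. NM_001319191 of PLAU (1.43) lies above the other PLAU transcripts, and XM_011527029 of PLAUR (-3.42) is the only point left of 0.

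MMP14, the membrane-type metalloproteinase that cleaves collagen at the cell surface and activates pro-gelatinase, was the most abundant metalloproteinase gene and barely differed. Its position is chromosome 14, plus strand, 22836557 to 22849027. It had 7264 reads and 257 TPM in the FLI1 library, against 6625 reads and 238 TPM in the vector library, a log2 ratio of 0.14 (0.09 to 0.19) or 1.10-fold. It supplied 53.1% of the summed TPM of the metalloproteinase family in the FLI1 library (484 TPM in all) and 51.6% in the vector library (462 TPM).

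MMP1, the interstitial collagenase that keratinocytes make on contact with dermal collagen, was 1.56-fold higher. It had 572 reads and 41.0 TPM in the FLI1 library, against 368 reads and 26.7 TPM in the vector library, a log2 ratio of 0.64 (0.45 to 0.84). This exceeded the ratio of MMP14 by 0.50 (0.31 to 0.70). MMP1 lies on the minus strand of chromosome 11 from 102789920 to 102798160.

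MMP9 and MMP10 were near the detection limit. MMP9, a gelatinase that cleaves basement membrane collagen, had 29 reads and 1.71 TPM in the FLI1 library, against 8 reads and 0.48 TPM in the vector library. The log2 ratio was 1.80 (0.70 to 3.21), or 3.49-fold with an interval from 1.63 to 9.23-fold. MMP9 (plus strand of chromosome 20, 46008908 to 46016561) reached the filter only through the FLI1 library, where it is high. MMP10, which encodes a stromelysin of the migrating wound edge, had 14 reads and 1.15 TPM in the FLI1 library, against 11 reads and 0.91 TPM in the vector library (0.34, -0.89 to 1.64). It lies on the minus strand of chromosome 11 from 102770503 to 102780628, next to MMP1, did not pass the filter, and a difference was not detectable at this depth. MMP9 was above MMP10 by TPM in the FLI1 library and below it in the vector library, but in both libraries their TPM counting intervals overlap (1.15 to 2.46 and 0.63 to 1.93 in the FLI1 library, 0.21 to 0.95 and 0.45 to 1.63 in the vector library).

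**Figure D3:**
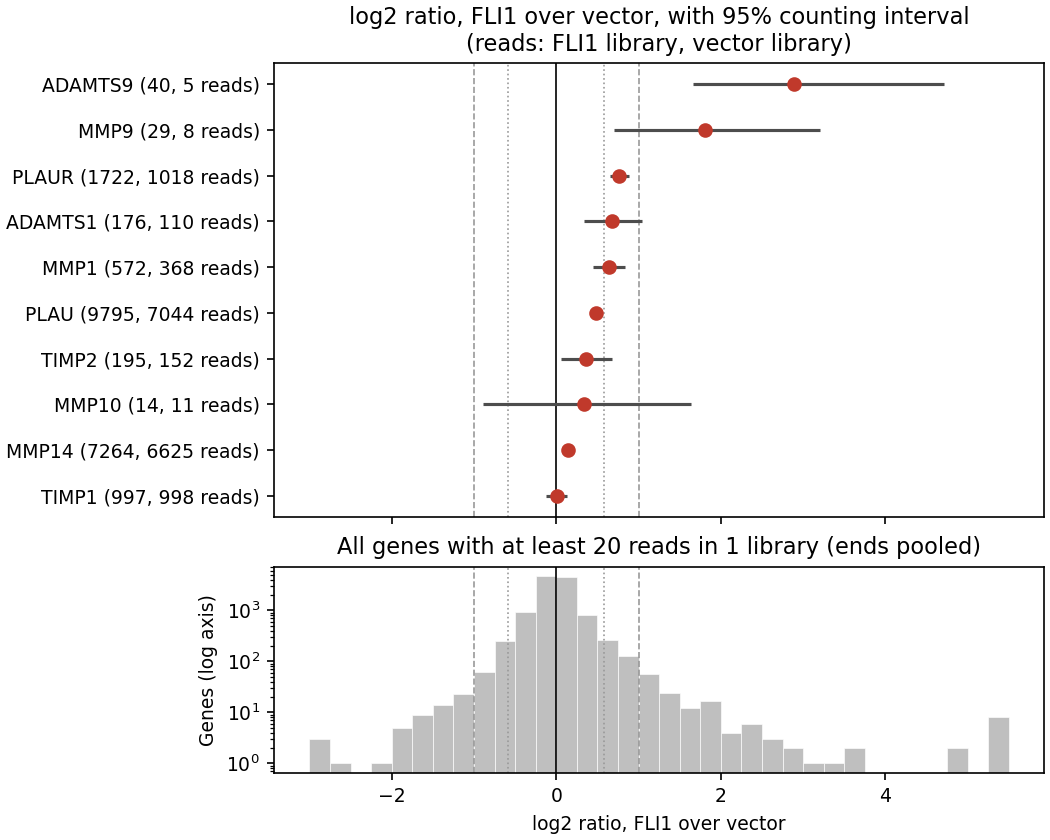
Top, log2 ratio (FLI1 over vector) of the 10 genes with 95% counting intervals and the reads of the FLI1 and vector libraries. Bottom, the number of all genes past the filter per ratio bin on a log axis, with the ends pooled. Dotted and dashed lines mark 1.5-fold and 2-fold in either direction. No interval lies wholly below 0, and those of TIMP1 and MMP10 include it.

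MMP1 and MMP10 stand in a run of 9 metalloproteinase genes on the minus strand of chromosome 11, from 102520508 (MMP7) to 102955734 (MMP13), and the ratio of MMP1 exceeded those of the 3 neighbours that passed the filter. Values were available for 6 of the 9. MMP12, a macrophage-type elastase gene, had 18 reads in the FLI1 library and 35 in the vector library (-0.93, -1.86 to -0.09), and reached the filter only through the vector library, where it is high. MMP13, a second collagenase gene, had 45 and 82 reads in the FLI1 and vector libraries (-0.85, -1.42 to -0.32). MMP7, a matrilysin gene of epithelia, had 615 and 632 (-0.03, -0.19 to 0.13). The ratio of MMP1 exceeded those of MMP12, MMP13 and MMP7 by 1.60 (0.71 to 2.52), 1.5 (0.92 to 2.09) and 0.68 (0.42 to 0.93) on the log2 scale. MMP20 had 2 reads in the FLI1 library and 1 in the vector library.

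**Figure D4:**
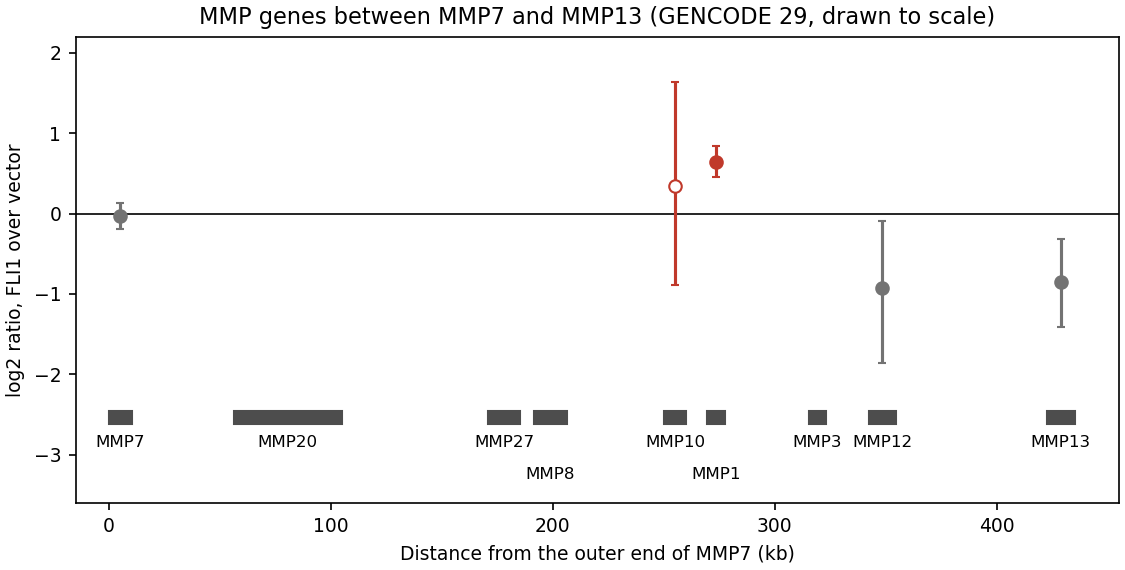
Metalloproteinase genes between MMP7 and MMP13 on chromosome 11, drawn to scale as bars by distance in kb, with the log2 ratio (FLI1 over vector) and 95% counting interval above each. Filled points passed the filter, and the open point is MMP10 (14 and 11 reads in the FLI1 and vector libraries). MMP20, with 2 and 1 reads, and genes without values have no point. MMP1 lies above 0, MMP12 and MMP13 below it.

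Of 23 metalloproteinase genes listed, 17 had values and 12 passed the filter. Among these 12, MMP1 and MMP9 were at least 1.5-fold higher, against 3.51% of all genes past the filter. MMP12, MMP13 and MMP19 were at least 1.5-fold lower, against 2.09%. MMP19 had 19 and 29 reads in the FLI1 and vector libraries (-0.59, -1.52 to 0.28). MMP12 and MMP19 passed only through the vector library and MMP9 only through the FLI1 library. The family median was -0.03. Of the 9 family genes that are not among the 10, 0 had an interval above 0 and 2 had one below it, against 16.5% and 14.7% of all genes past the filter. The summed family level was 2.02 times that of the TIMP genes by TPM in the FLI1 library and 1.94 times in the vector library.

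TIMP1, which inhibits most secreted metalloproteinases but MMP14 only weakly, was even between the libraries. It had 997 reads and 232 TPM in the FLI1 library, against 998 reads and 232 TPM in the vector library, a log2 ratio of 0.01 (-0.12 to 0.13), and slightly below 0 when the libraries were scaled by their totals (-0.02) or from TPM plus 0.5. Its interval excludes a difference beyond 1.10-fold in either direction as far as counting error goes. TIMP1 (chromosome X, plus strand, 47582313 to 47586789) lies within SYN1 on the opposite strand, which had 60 reads in the FLI1 library and 66 in the vector library. Its second transcript, XM_017029766, held 10.1% of the reads in the FLI1 library (8.33 to 12.2) and 10.8% in the vector library (8.96 to 12.9).

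TIMP2, which inhibits MMP14 and also bridges it to pro-gelatinase, was far scarcer than TIMP1. It had 195 reads and 7.0 TPM in the FLI1 library, against 152 reads and 5.54 TPM in the vector library, a log2 ratio of 0.37 (0.05 to 0.68) or 1.29-fold. TIMP2 lies on the minus strand of chromosome 17 from 78852977 to 78925387, and CEP295NL within it had 2 reads in the FLI1 library and 1 in the vector library. There were 33.1 TIMP1 transcripts per TIMP2 transcript by TPM in the FLI1 library and 41.9 in the vector library. The log2 ratio of MMP1 exceeded that of TIMP1 by 0.64 (0.41 to 0.87), whereas the interval of MMP14 against TIMP1 included 0 (0.13, -0.0028 to 0.27). TIMP3, a matrix-bound inhibitor (27 and 20 reads in the FLI1 and vector libraries, 0.43, -0.45 to 1.35), and RECK, a membrane-anchored inhibitor (24 and 29 reads, -0.26, -1.11 to 0.57), had intervals that included 0.

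ADAMTS9 had the largest ratio of the 10 genes and the lowest level. ADAMTS9 encodes a secreted protease that cleaves the proteoglycans versican and aggrecan, and lies on the minus strand of chromosome 3 from 64515654 to 64688000. It had 40 reads and 0.67 TPM in the FLI1 library, against 5 reads and 0.08 TPM in the vector library. The log2 ratio was 2.89 (1.67 to 4.71), or 7.40-fold with an interval from 3.17 to 26.1-fold, and like MMP9 it reached the filter only through the FLI1 library. Its ratio exceeded that of ADAMTS1 by 2.32 (0.91 to 4.06), while the interval against MMP9 included 0 (1.14, -0.83 to 3.24). NM_001318781, a model of 39 exons, was the only ADAMTS9 transcript with values, so all reads of the gene fell to it by construction.

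ADAMTS1, a protease of the same substrates and an inhibitor of angiogenesis, was 1.61-fold higher. It had 176 reads and 4.34 TPM in the FLI1 library, against 110 reads and 2.76 TPM in the vector library, a log2 ratio of 0.68 (0.33 to 1.04). It lies on the minus strand of chromosome 21 from 26835747 to 26845409. Of the 19 genes in the ADAMTS list, 10 had values and 6 passed the filter, and their median ratio was 0.42. An interval above 0 was found for 4 of these 6 (16.5% of all genes) and one below 0 for none (14.7%). Without ADAMTS1 and ADAMTS9 the median was 0.35, and 2 of 4 had an interval above 0. ADAMTS12 (412 and 324 reads in the FLI1 and vector libraries, 0.35, 0.14 to 0.57) and ADAMTS6 (105 and 75 reads, 0.49, 0.05 to 0.94) were the other 2 with intervals above 0. ADAMTS4, named after its values were seen, had 11 reads in the FLI1 library and 0 in the vector library. With the vector library set to a limit of 3 reads it was 3.69-fold higher, taking the 11 reads as exact. Its counting interval starts at a log2 ratio of 1.34. ADAMTS13, also named after its values were seen, had 3 and 18 reads in the FLI1 and vector libraries (-2.39, -4.98 to -0.80). Both stayed below the filter.

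Among all 10 genes, 8 had a counting interval above 0 (16.5% of the 11659 genes past the filter did) and 0 had one below it (14.7%). At least 1.5-fold higher were 5 genes, ADAMTS9, MMP9, PLAUR, ADAMTS1 and MMP1 (3.51% of genes past the filter), and 0 were at least 1.5-fold lower (2.09%). At least 2-fold higher were 2 genes, ADAMTS9 and MMP9 (1.19%), both with fewer than 20 reads in the vector library, and 0 were at least 2-fold lower (0.48%). On the log2(FPKM + 0.5) scale, which shrinks scarce genes, their ratios were 0.68 and 0.92. Because the genes were chosen from this comparison, nothing follows from these counts about the system as a whole. Of the 45 pairs among the 10 genes, 24 had a difference in log2 ratio whose interval left out 0. In the order ADAMTS9, MMP9, PLAUR, ADAMTS1, MMP1, PLAU, TIMP2, MMP10, MMP14 and TIMP1, every interval between neighbours included 0.

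Of the 6 ADAM membrane proteases past the filter, ADAM19, a sheddase gene, alone was at least 1.5-fold higher, against 3.51% of all genes. It had 1663 and 1095 reads in the FLI1 and vector libraries (0.61, 0.50 to 0.72). A counting interval above 0 was found for 3 of the 6 (16.5% of all genes) and one below 0 for none (14.7%). ADAM8 (0.49, 0.42 to 0.56) and ADAM9 (0.13, 0.07 to 0.20) were the others above 0, and the list median was 0.07. All 9 measured genes of pro-protease activation were within 1.5-fold. So were most genes past the filter, of which 3.51% lay beyond that size upward and 2.09% downward. The median of the 9 was -0.09, with no interval above 0 (16.5% over all genes) and 3 below it (14.7%). The most abundant genes of that list were BSG, an inducer of metalloproteinases (-0.14, -0.18 to -0.10), and SPINT2, an inhibitor of membrane serine proteases (-0.03, -0.09 to 0.04). The 11 matrix substrate genes had a median of 0.38, and 7 of their intervals lay above 0 (16.5% over all genes) and 2 below it (14.7%). None of the 11 was at least 1.5-fold higher or lower, against 3.51% and 2.09% of all genes. LAMB3, a chain of the epidermal laminin, had 9356 reads in the FLI1 library and 8043 in the vector library (0.23, 0.18 to 0.27).

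Transcription factor genes of the AP-1, ETS and NF-kB families known to act on such promoters had a median ratio of 0.30 over 16 genes. An interval above 0 was found for 10 of them (16.5% of all genes) and one below 0 for none (14.7%), and 5 were at least 1.5-fold higher (3.51%). These were FOSB, FOS, JUN, FOSL1 and the ETS gene ELK3. FOSB had 57 and 23 reads in the FLI1 and vector libraries (1.30, 0.60 to 2.08) and FOS 60 and 29 (1.04, 0.39 to 1.75). JUN had 456 and 247 reads (0.89, 0.67 to 1.12), FOSL1 1964 and 1080 (0.87, 0.76 to 0.98) and ELK3 1426 and 874 (0.71, 0.59 to 0.84). The intervals of FOSL2, ETS2, ETV4, ETV5, ELF3 and NFKB1 included 0. With 2 libraries no relation between a factor and a protease gene could be measured.

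**Figure D5:**
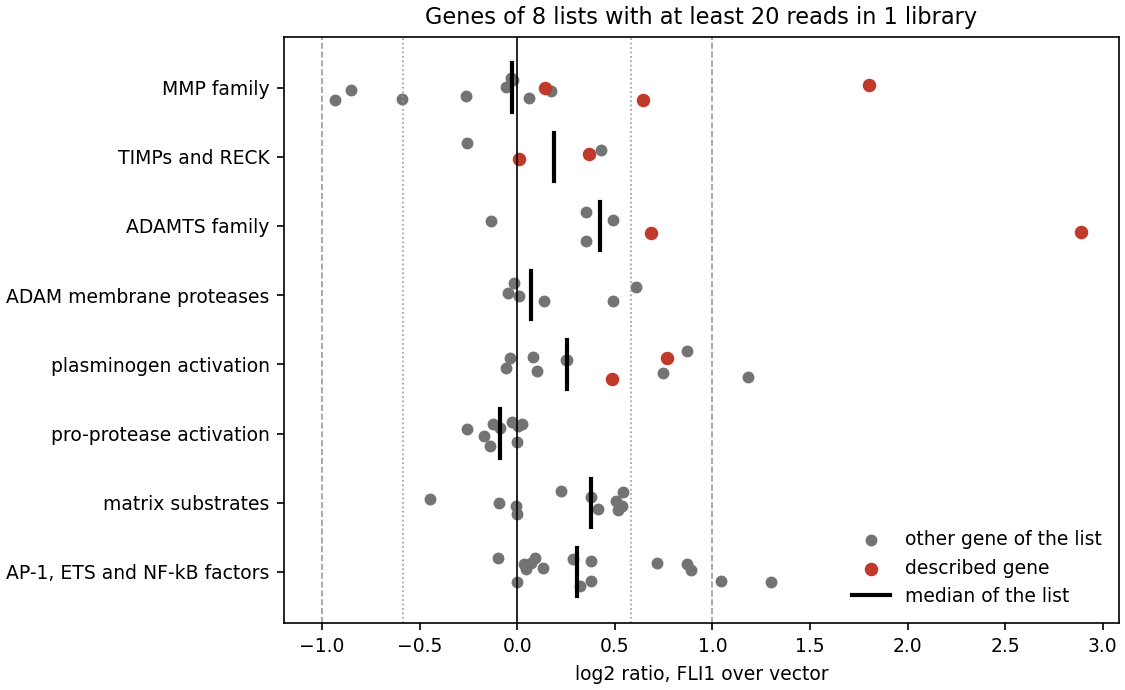
Log2 ratio (FLI1 over vector) of genes past the filter in 8 lists, with the described genes in red, other genes in grey and the list median as a black line. Dotted and dashed lines mark 1.5-fold and 2-fold. Metalloproteinase genes lie on both sides of 0, while no plasminogen activation gene lies below -0.06.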

How the data were processed

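HaCaT cells with MigR1-FLI1 and with MigR1 alone were sequenced as 1 library each on a BGISEQ instrument, per the labels' protocols, with GRCh38.p13 as the reference per the submitters' processing notes. No source used here names the aligner, counter, annotation or strand setting, so reads of a gene and of an overlapping gene on the other strand may not be separated. Per the file headers, the deposited tables give estimated counts, FPKM and TPM for 15159 genes and 61479 transcripts. All 10 genes described had whole counts (to within 0.005 reads), and 81.5% of all genes did. Estimated counts were rounded and scaled by TMM in edgeR 4.0.16 (R 4.3.3; factors 0.991 for the FLI1 library and 1.01 for the vector library). Deposited TPM values were used for levels and deposited FPKM values for an alternative scale. All value columns were matched to a library.

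The log2 ratio adds 0.5 reads to each count. Its 95% interval is an exact conditional (Clopper-Pearson) interval, with a half-width of 0.97 at 20 reads in each library, 0.41 at 100 and 0.13 at 1000. Genes with at least 20 reads in 1 library passed the filter. No p-value was computed. Genes at least 1.5-fold or 2-fold apart are counted by size alone. Differences between 2 genes use the exact conditional interval of the odds ratio (scipy 1.17.1). The interval calculation was tested only on simulated data that held counting error alone. That is the error it assumes, so the test says nothing of other error. From each list, beside the 10 genes, a rule names those past the filter and at least 1.5-fold apart (at most 5). Where there are none, it names the 2 with the highest mean FPKM. Other genes were named outside this rule, among them PLAT, ANXA2, S100A10, LRP1, MMP7 and those of the cathepsin and crosslinking lists. Some genes that this rule names are not reported here. The genes and lists were chosen with earlier results of these data known. Alternatives were DESeq2 1.42.0 size factors, library totals, FPKM or TPM in place of counts, other filters, another added count and sums over transcripts. Gene positions are from GENCODE 29. Protein sequences were not analysed here.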

Additional observations from a re-analysis of the deposited data

How the results depend on the processing

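Scaling by DESeq2 size factors or library totals, adding 5 reads and summing transcripts left the ratio of each of the 10 genes within its counting interval. TIMP1, near 0 throughout, had the other sign in 2 of 70 recomputed values. Scales with an added constant shrank the 2 scarcest genes with large ratios. ADAMTS9 had a log2 ratio of 0.68 from FPKM plus 0.5, 0.39 from FPKM plus 1 and 1.01 from TPM plus 0.5, and MMP9 had 0.63 from FPKM plus 1. From FPKM plus 0.5 or plus 1, 0 genes were at least 2-fold higher, and from FPKM plus 1, 3 were at least 1.5-fold higher. With at least 100 reads required these counts were 0 and 3, since MMP9 and ADAMTS9 drop out. With a mean of at least 20 reads over both libraries, an alternative chosen after seeing the data, 1 gene (ADAMTS9) was at least 2-fold higher. The median of the matrix substrates was 0.29 from FPKM plus 0.5, 0.21 from FPKM plus 1 and 0.30 with at least 100 reads, and that of the ADAM proteases was -0.0060 with any read. The metalloproteinase median was 0.14 with any read. Counting intervals could not be computed from FPKM or TPM. No paired analysis was possible because each group has 1 library. Depth limits MMP10, MMP9, ADAMTS9 and single minor transcripts most.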

Other observations

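Lysosomal cathepsins and their cystatin inhibitors, a list chosen after the data were seen, had a median ratio of 0.02 over 14 genes past the filter. Of these, 5 had a counting interval above 0 and 4 one below it, against 16.5% and 14.7% of all genes past the filter. At least 1.5-fold higher were 3 of the 14 (3.51% of all genes), and 0 were at least 1.5-fold lower (2.09%). CTSE had the largest ratio, on 21 reads in the FLI1 library and 9 in the vector library (1.19, 0.04 to 2.54). It passed the filter only through the FLI1 library. CTSS, a cathepsin that keeps its activity outside the lysosome, had 213 reads in the FLI1 library and 118 in the vector library (0.86, 0.53 to 1.20). CTSC, which activates serine proteases of immune cells, had 7279 and 5624 reads in the FLI1 and vector libraries (0.38, 0.33 to 0.43). CTSD, the most abundant cathepsin by TPM, had 10342 and 11595 (-0.16, -0.20 to -0.12). Of 5 matrix crosslinking genes past the filter, TGM2, a transglutaminase gene, alone was at least 2-fold higher, against 1.19% of all genes past the filter. TGM2 had 22 reads in the FLI1 library and 6 in the vector library (1.80, 0.54 to 3.47). It passed the filter only through the FLI1 library, where it is high. PLOD2, a collagen lysyl hydroxylase gene, had 1199 and 1047 reads (0.20, 0.08 to 0.32).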
